A study of Homo sapiens with 2 samples.

Results

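The 10 genes described here encode enzymes that make serine, pass its carbon to folate and its backbone to cysteine, together with asparagine synthetase and the transcription factor ATF4. They are PHGDH, PSAT1, PSPH, SHMT1, SHMT2, MTHFD2, CBS, CTH, ASNS and ATF4. Every probe set that the array's annotation pairs with exactly 1 of these symbols was taken, which gave 21 probe sets. All 10 genes were found, out of 19775 genes named on the array. The genes were grouped by pathway, with earlier results of these data known. The labels give LN229, an established line of human glioblastoma, as the source of both RNAs, grown in DMEM with 10% FBS. That the cells of both cultures were this line was not tested, and marker genes differed widely between them, as given before the results. The miR-127-3p culture carried the plasmid pSUPER.neo-miR-127-3p, which overexpresses this microRNA, and the control culture carried pSUPER.neo alone. Whether a culture was 1 clone or a pool is not given in the sources used here. Each culture was measured on 1 Affymetrix array, so no test between the groups was possible and no p-value is given. The study asked which transcripts miR-127-3p regulates in a glioblastoma line.

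Cells make serine from a glycolytic intermediate in 3 steps, carried out by PHGDH, PSAT1 and PSPH. Serine hydroxymethyltransferases, SHMT2 in mitochondria and SHMT1 in the cytosol, split serine into glycine and a carbon unit carried by folate, which MTHFD2 then oxidises in mitochondria. In transsulfuration, CBS joins serine to homocysteine to give cystathionine, and CTH splits cystathionine to release cysteine. ATF4 is translated when amino acids run short or proteins misfold. The genes it is known to activate include ASNS, PHGDH, PSAT1, SHMT2, MTHFD2 and CTH. Proliferating tumour cells draw on this network for nucleotides, glutathione and methyl groups.

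The overexpressed microRNA is shown with its seed, bases 2 to 8, in capitals, because the seed is the part that pairs with target transcripts. The sequence is from RefSeq and lies at chr14:100883035-100883056 on the plus strand of GRCh38.p14.
hsa-miR-127-3p: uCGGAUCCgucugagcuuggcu
No transcript sequence was used here, so sites for this seed in the 10 transcripts were not searched. ATF4 acts with C/EBP proteins at composite elements, of which TGATGNAA is a common form. This motif was searched on both strands in the RefSeq promoter windows of the members, from 250 bases before to 50 bases after the gene start. Windows were held for 8 of the 10 genes, in 12 entries, and PSPH and SHMT2 had none. The letters were found in 1 entry, that of ASNS, whose first matching base lies 68 bases before the start. Of all 35116 promoter windows 3.62% hold them. The 30 bases around the match, at chr7:97872458-97872487 on the minus strand of GRCh38.p14, are shown because ASNS is the classical gene in which such an element was described, with the match in capitals.
ASNS: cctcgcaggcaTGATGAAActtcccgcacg
A match is a run of letters and not a measured binding site, and its absence from the other windows says nothing of ATF4 at those genes.

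The values are probe set signals in arbitrary units. Their median over non-control probe sets was 83.3 in miR-127-3p cells and 93.9 in control cells. A probe set was used for counts if its mean log2 signal lay above the median of all, at a signal of about 83.0, and the brightest such probe set stood for its gene. Log2 ratios are miR-127-3p minus control, after the median of all genes above the filter was set to 0, so a negative ratio is a lower signal with miR-127-3p. The only measure of error was the disagreement between probe sets of a gene, an SD of 0.41 on the log2 scale from 5974 genes, which holds no variation between cultures. Of 14 epithelial markers on the array 13 were brighter in the control. The summed signal of the 14 was 7859 in miR-127-3p cells and 88397 in control cells. Only 7 of the 14 passed the filter, and KRT20, CLDN3, CLDN7 and CDH17 lay below the array median on both arrays. The 2 probe sets of KRT7 lay on opposite sides, with log2 ratios of -0.73 and 0.76. KRT5 alone was brighter with miR-127-3p, with 88.3 in miR-127-3p cells and 4.52 in control cells. No epithelial marker was listed at 0, and the KRT5 signal in the control was the lowest among them. EPCAM gave 30.2 in miR-127-3p cells and 9181 in control cells. Of 13 glial and glioma markers 10 passed the filter, and 1 was higher and 3 were lower by 2-fold or more. Over all genes above the filter 5.06% were higher and 8.67% were lower by that much. The higher marker was SLC1A3, a glial glutamate transporter, with 2689 in miR-127-3p cells and 73.9 in control cells. SOX9, SOX2 and NES had log2 ratios of -1.63, -1.24 and -1.03. The other 6 lay within 2-fold, among them VIM with 48866 in miR-127-3p cells and 45584 in control cells. GFAP, a defining glial marker, was below the array median on both arrays, with 14.9 in miR-127-3p cells and 34.2 in control cells. Epithelial and glial markers thus both differed between the arrays that give every ratio below. In bulk RNA, fewer cells with a transcript and less of it per cell cannot be told apart.

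Transcripts for several steps of the network were lower with miR-127-3p. Past the filter were 9 members, and 4 of them were lower by 2-fold or more while none was higher by that much. These 4 were CBS, CTH, PSAT1 and SHMT2, from transsulfuration, serine synthesis and mitochondrial folate metabolism. The 4 are 44.4% of the members that passed, while over all 11985 genes past the filter 8.67% were lower by 2-fold or more and 5.06% were higher by that much. All 9 members were above the array median on both arrays. The members' median log2 ratio was -0.93, beside 0 over all genes, with a lower quartile of -0.41. The ratios ran from -2.40 for CBS to 0.48 for PSPH, and 8 of the 9 were below 0, though PHGDH was almost level at -0.03. SHMT1 had no probe set above the filter under its own symbol. The epithelial markers had a median of -5.79 over the 7 that passed, the glial ones a median of -0.44 over 10, and the part of either in the members' ratios was not tested. Among the 16 member probe sets that passed, 6 were lower by 2-fold or more and 1 was higher by that much, beside 8.08% and 5.28% of 22459 probe sets.

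**Figure D1:**
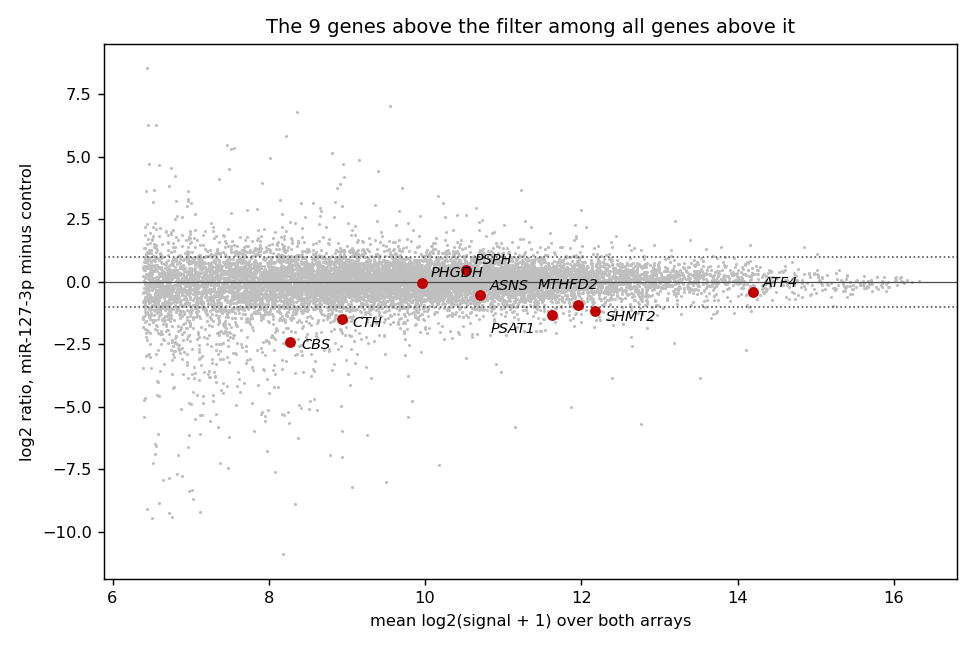
Log2 ratio of miR-127-3p minus control (vertical axis) against the mean log2(signal + 1) of both arrays (horizontal axis), with a grey point for each of 11985 genes above the filter and a red point for each of the 9 members above it. Dotted lines mark 2-fold. CBS, CTH, PSAT1 and SHMT2 lie below the lower line, and PSPH alone lies above 0.

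The serine synthesis enzymes differed in direction. PHGDH, a dehydrogenase that commits the glycolytic intermediate to serine, had signals of 984 in miR-127-3p cells and 999 in control cells at probe set 201397_at. The arrays were almost level for it, with a log2 ratio of -0.03. A brighter probe set, 212995_x_at, is annotated to PHGDH together with MZT2A and MZT2B and was left out by the rule. It gave 6249 in miR-127-3p cells and 6661 in control cells, a log2 ratio of -0.10, and cannot be assigned to 1 gene.

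PSAT1, the aminotransferase of the second step, was lower at both of its probe sets. Probe set 223062_s_at gave 2013 in miR-127-3p cells and 4983 in control cells. Probe set 220892_s_at gave 594 in miR-127-3p cells and 1233 in control cells. The log2 ratios were -1.32 and -1.06, or 2.49-fold and 2.09-fold lower, so both probe sets passed 2-fold on the same side. They differed from each other by 0.26, and 54.0% of genes with several probe sets had a gap at least as large. Of all genes above the filter 5.38% had a ratio as low as that of PSAT1 or lower.

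PSPH, the phosphatase of the last step, was higher with miR-127-3p at all 3 probe sets. Probe set 205194_at gave 1746 in miR-127-3p cells and 1240 in control cells. Probe set 205048_s_at gave 704 in miR-127-3p cells and 304 in control cells. Probe set 244819_x_at gave 327 in miR-127-3p cells and 275 in control cells. All lay on the side opposite to PSAT1, with log2 ratios of 0.48, 1.20 and 0.24. The dimmer 205048_s_at was 2.29-fold higher, while the brightest was 1.40-fold higher, and 18.8% of genes had a ratio as high as that of the brightest or higher. RefSeq lists a pseudogene, PSPHP1, on the same chromosome, and whether these probe sets also detect it was not tested.

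**Figure D2:**
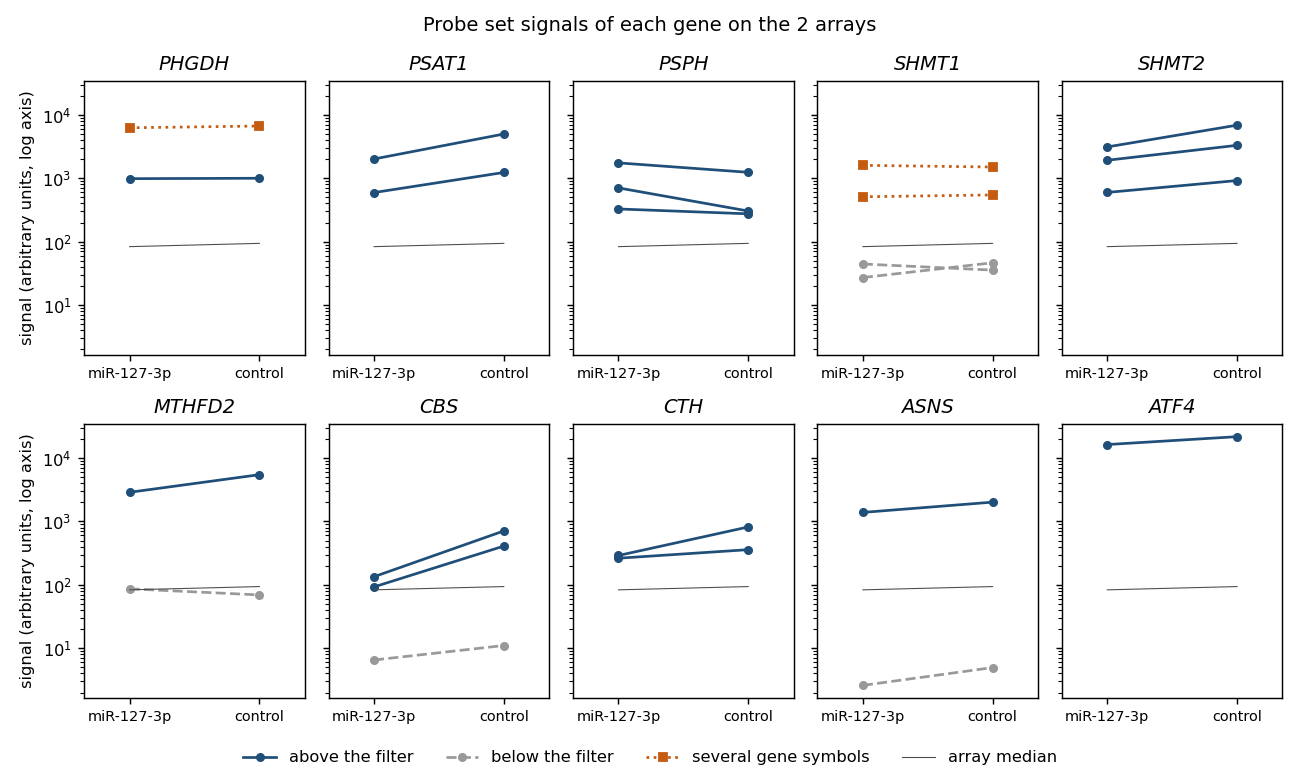
Signals of every probe set of the 10 genes (vertical axis, arbitrary units, log axis) with miR-127-3p on the left and in the control on the right of each panel. Lines join the same probe set on the 2 arrays, and slopes up to the right, as for PSAT1, SHMT2, MTHFD2, CBS and CTH, are lower signals with miR-127-3p.

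SHMT2 and MTHFD2 were lower, and the brighter probe sets shared by SHMT1 and a microRNA gene were near level. SHMT2, which makes glycine in mitochondria, had 3 probe sets above the filter. Probe set 214096_s_at gave 3119 in miR-127-3p cells and 6874 in control cells. Probe set 214437_s_at gave 1922 in miR-127-3p cells and 3305 in control cells. Probe set 214095_at gave 597 in miR-127-3p cells and 919 in control cells. All were dimmer with miR-127-3p, at log2 ratios of -1.15, -0.79 and -0.63, but only the brightest passed 2-fold. The gap between the 2 brightest was 0.36, and 41.4% of genes had one as large.

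MTHFD2, a mitochondrial methylenetetrahydrofolate dehydrogenase and cyclohydrolase that is high in embryonic and tumour cells, was just short of 2-fold lower. Probe set 201761_at gave 2882 in miR-127-3p cells and 5464 in control cells, a log2 ratio of -0.93, or 1.91-fold lower. Of all genes 9.62% were as low or lower. Its other probe set, 234976_x_at, was below the filter with 86.4 in miR-127-3p cells and 69.3 in control cells.

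SHMT1, the cytosolic counterpart of SHMT2, was measured under its own symbol only by dim probe sets. Probe set 217304_at gave 27.1 in miR-127-3p cells and 46.4 in control cells, and 231701_s_at gave 44.4 in miR-127-3p cells and 35.5 in control cells. These signals lay below the array medians and their order was opposite, so no fold is given. Another pair of probe sets is annotated to SHMT1 and to MIR6778, a microRNA gene, and was left out by the rule. Of these, 224954_at gave 1598 in miR-127-3p cells and 1503 in control cells, and 209980_s_at gave 510 in miR-127-3p cells and 545 in control cells. Their log2 ratios of 0.08 and -0.11 were within the probe set spread of 0.41.

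Both transsulfuration enzymes were lower by 2-fold or more at their brightest probe sets. CBS, the entry enzyme of the pathway, gave 134 in miR-127-3p cells and 708 in control cells at probe set 1553972_a_at. At probe set 212816_s_at it gave 92.8 in miR-127-3p cells and 409 in control cells. Both were close to the array median with miR-127-3p and well above it in the control. The log2 ratios of -2.40 and -2.14, or 5.28-fold and 4.40-fold lower, lay 0.26 apart. Of all genes above the filter 2.09% had a ratio as low as that of CBS or lower. A dim probe set, 240517_at, lay far below the array median on both arrays, with 6.52 in miR-127-3p cells.

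CTH, which releases cysteine from cystathionine, was lower too, but its probe sets differed in how much. Probe set 217127_at gave 290 in miR-127-3p cells and 818 in control cells, a log2 ratio of -1.50, or 2.83-fold lower. Probe set 206085_s_at gave 263 in miR-127-3p cells and 358 in control cells, a log2 ratio of -0.46, or 1.37-fold lower. The gap between the ratios was 1.05. Of genes with several probe sets 6.55% had a gap as large, so the size of the difference for CTH is uncertain while its side is shared.

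ASNS and ATF4 were lower by less than 2-fold. ASNS, which makes asparagine from aspartate and glutamine, gave 1388 in miR-127-3p cells and 2015 in control cells at probe set 205047_s_at, a log2 ratio of -0.55, or 1.46-fold lower. This is the member whose promoter window holds the printed motif. Its other probe set, 241082_at, gave 2.59 in miR-127-3p cells and 4.95 in control cells and was far below the array medians. ATF4, the transcription factor of the response, gave 16327 in miR-127-3p cells and 21732 in control cells at its only probe set, 200779_at. Its log2 ratio of -0.42 was close to the probe set spread, and 24.3% of genes were as low or lower. ATF4 is controlled mainly through translation of its transcript, which these arrays do not measure.

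**Figure D3:**
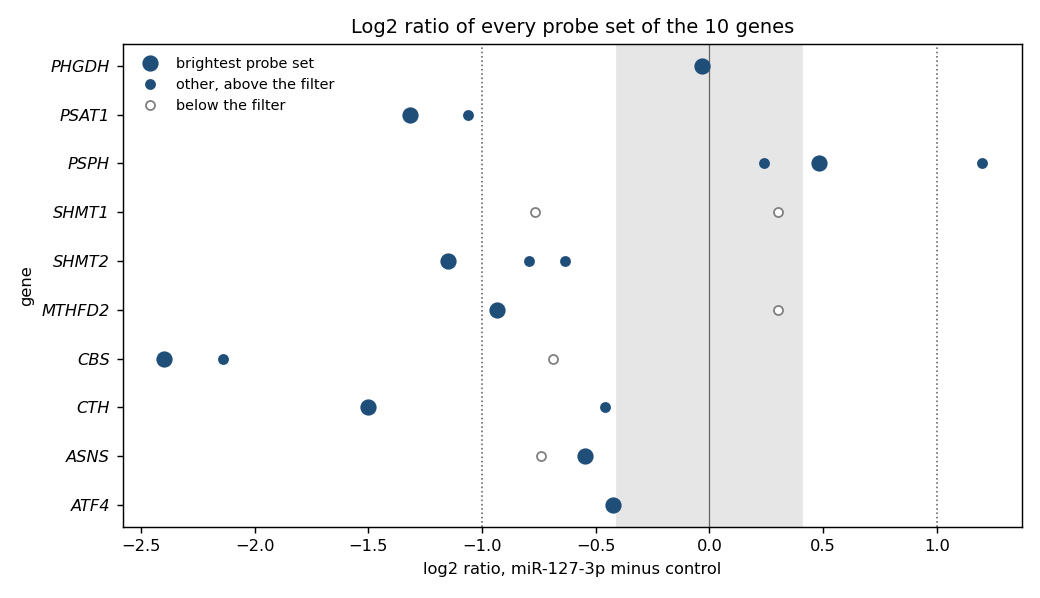
Log2 ratio of miR-127-3p minus control (horizontal axis) for all 21 probe sets annotated to 1 of the 10 genes (rows, ordered by pathway step). Large filled points are the brightest probe set of a gene, small filled points the others above the filter and open points those below it. The grey band is the probe set spread of 0.41 on either side of 0 and dotted lines mark 2-fold. Both filled points of CBS and of PSAT1 lie beyond 2-fold, and the filled points of PSPH lie to the right of 0.

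Neighbouring pathways were described through lists from which the 10 genes were left out. The counts for each list stand beside 8.67% of all 11985 genes that were lower by 2-fold or more and 5.06% that were higher. In serine uptake and use, 18 genes passed the filter, of which 4 were lower by 2-fold or more and none was higher by as much, with a median of -0.35. SLC1A5, a neutral amino acid and glutamine transporter, gave 553 in miR-127-3p cells and 2665 in control cells, a log2 ratio of -2.28. SLC38A1, another neutral amino acid transporter, had 3 probe sets between -1.38 and -1.34. SLC1A4, a serine and alanine transporter, had 5 between -1.21 and -0.78. SERINC2 was at least 2.10-fold lower against the array median, since its signal of 63.3 with miR-127-3p lay below it. In the other direction PKM, pyruvate kinase, had a ratio of 0.69 at its brightest probe set and -0.23 at the other, and SERINC3 one of 0.65. SLC38A2, a transporter that is itself induced by amino acid shortage, was at 0.41.

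Of 20 genes of the folate cycle, glycine cleavage and purine synthesis 5 were at least 2-fold lower and none higher, with a median of -0.23. PPAT, the committing enzyme of purine synthesis, gave 418 in miR-127-3p cells and 1713 in control cells, but its 3 probe sets ran from -2.05 to 0.12. PAICS, a later purine enzyme, gave 2858 in miR-127-3p cells and 8185 in control cells, with probe sets at -1.53 and -1.27. AMT, a subunit of the glycine cleavage system, was at -1.49. The folate carriers SLC19A1 and SLC46A1 had log2 ratios of -1.32 and -1.03, but the 4 probe sets of SLC19A1 ran from -1.32 to 1.23. GCSH, another glycine cleavage subunit, was at -0.93, and DLD, the subunit shared with other dehydrogenases, was at 0.85. FOLR1, a folate receptor, was at 0.38 at its brightest probe set and at -2.61 at the other. MTHFD1, the trifunctional folate enzyme of the cytosol, was level, with 4835 in miR-127-3p cells and 4792 in control cells. MTHFD2L, a mitochondrial relative of MTHFD2, was near level too, with 976 in miR-127-3p cells and 915 in control cells. Its 3 probe sets ran from -0.33 to 0.08.

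In the methionine cycle and polyamine synthesis none of 16 genes was at least 2-fold lower and 1 was higher, although the median was -0.45. The higher gene was NNMT, which methylates nicotinamide and so consumes methyl groups. It gave 4348 in miR-127-3p cells and 1300 in control cells, with log2 ratios of 1.73 and 1.66 at its 2 probe sets. The lowest were MTAP, which recycles methylthioadenosine, at -0.85 and APIP, an enzyme of the same salvage pathway, at -0.80.

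Past the filter were 14 genes of cysteine and glutathione metabolism, 9 with ratios below 0 and 5 above. Of these 2 were at least 2-fold lower and none higher, with a median of -0.05. SQOR, which oxidises hydrogen sulfide in mitochondria, gave 205 in miR-127-3p cells and 1517 in control cells, a log2 ratio of -2.89. CHAC1, which degrades glutathione, was the other, but its signal of 55.7 with miR-127-3p was below the array median, and against that median it was only at least 1.56-fold lower. Both subunits of the enzyme that limits glutathione synthesis were on the other side, with GCLM at 0.51 and GCLC at 0.41. SLC7A11, the cystine importer, was at -0.39.

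Of 10 genes of aspartate, asparagine and proline metabolism 2 were at least 2-fold lower and none higher, with a median of -0.60. ASS1, which joins aspartate to citrulline, gave 127 in miR-127-3p cells and 2185 in control cells, a log2 ratio of -4.11. ALDH18A1, the entry enzyme of proline synthesis, had probe sets at -1.26 and -1.18. ASL, which acts after ASS1, was at 0.26, and GOT1, the cytosolic aspartate aminotransferase, was level at -0.02.

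Other genes known to respond to ATF4 lay on both sides of 0, with 13 ratios below it and 13 above. Of 26 that passed the filter 4 were lower by 2-fold or more and 2 were higher, beside 8.67% and 5.06% of all genes. The list median was 0.03. Lower were VLDLR, a lipoprotein receptor, at -1.92, NUPR1, a stress-induced nuclear protein, at -1.72, DDIT4, an inhibitor of mTORC1, at -1.28 and AARS1, alanyl-tRNA synthetase, at -1.04. Higher were GDF15, a stress cytokine, with 13086 in miR-127-3p cells and 4651 in control cells, and ATF5, a related transcription factor, at 1.42. TRIB3, a pseudokinase that is a sensitive ATF4 target, was level at -0.04. The lists do not overlap, so ATF4-responsive genes counted under other pathways, such as CHAC1 and SLC7A11, are not in this median. It depends on that assignment, and its difference from the members' median of -0.93 was not tested.

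**Figure D4:**
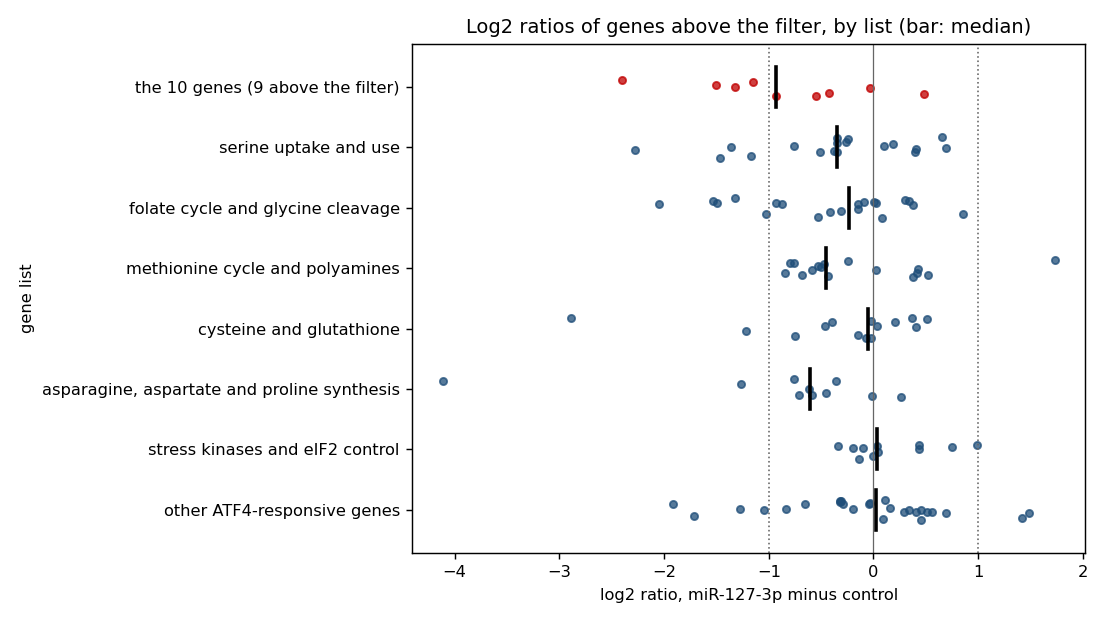
Log2 ratios of miR-127-3p minus control (horizontal axis) for genes above the filter in the members' set and in each of 7 pathway lists (rows; marker lists are not drawn), with black bars at the medians and dotted lines at 2-fold. The members' median of -0.93 lies left of the medians of these 7 lists, which run from -0.60 for asparagine, aspartate and proline synthesis to 0.04 for stress kinases and eIF2 control. Vertical scatter within a row has no meaning.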

How the data were processed

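The authors' deposited table holds 1 signal intensity per probe set and array, on a linear scale. Per the labels' protocols, Trizol RNA was labelled as biotinylated cRNA with an Affymetrix 3′ kit. The software that summarised probes is not given in the sources used here. Judged from the values, the arrays share a scale, with a mean of 500.1 on each after trimming 2% at each end. Groups were taken from the genotype labels.

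Symbols came from the platform annotation, updated through Entrez identifiers to RefSeq GRCh38.p14 (99.9% matched). Of 54613 non-control probe sets 41091 had 1 symbol, 1801 several and 11721 were unnamed here. Signals were turned into log2(signal + 1), which understates folds of dim genes. Folds past a dim signal were bounded by the array median. The probe set spread is the SD of the difference between the 2 brightest probe sets of a gene, divided by the square root of 2. A fixed 2-fold size was the only call rule. The members and lists were chosen with earlier results of these data known.

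Named were all probe sets of the members and, from each pathway list, up to 3 genes past 2-fold per direction, or otherwise the 2 highest and 2 lowest. The rule did not cover the marker lists, whose named genes were picked with their values in view. So were SLC1A4, SLC38A2, SLC19A1, SLC46A1, GCSH, MTHFD1, MTHFD2L, SLC7A11, AARS1, TRIB3 and the dim genes listed among the other observations. The number of arrays limits the precision. The 14 alternatives were other scalings, pseudocounts of 16 and 32, other filters, folds of 1.5 and 3, and other ways to combine probe sets. The procedure was tested on simulated data whose planted differences were larger than most of the members' ratios. The simulated data held no variation between cultures, so the test cannot speak to it. Python 3.11.15, numpy 2.4.6, pandas 2.3.3, statsmodels 0.14.6 and matplotlib 3.10.9 were used.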

Additional observations from a re-analysis of the deposited data

How the results depend on the processing

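With 1 array per group no spread between cultures could be set against any ratio. No paired analysis was possible because each group has 1 array. No member was at least 2-fold higher under any of the 14 alternatives. The number of members at least 2-fold lower was 4 in the main setting. It was 2 with the mean of all entering probe sets, where CTH came to -0.98 and SHMT2 to -0.86. It was 1, CTH at -1.49, with only probe sets that lack the suffixes _x_at, _s_at and _a_at, where 6 members were left. There CBS, PSAT1 and ASNS had no value and the median moved to -0.52. The number was also 1, CBS, at 3-fold. The count was within 1.5 times the main one under the other 11. Without the suffixed probe sets SHMT2 was at -0.62. CBS stayed at least 2-fold lower under all 10 other settings that gave it a value and PSAT1 under all 11. PSPH was above 0 under all 12, between 0.44 and 0.64, and PHGDH lay between -0.08 and 0.05. The share of all genes at least 2-fold lower was 17.2% with no filter and 4.95% with the filter at the 75th percentile. At 3-fold it was 3.94%, and at 1.5-fold 18.1%.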

Other observations

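Genes for stress kinases and for control of the initiation factor eIF2 stayed within 2-fold at the brightest probe set of each. So did most genes above the filter, of which 8.67% were lower and 5.06% were higher by 2-fold or more. Of the 11 genes in this list, all above the filter, 5 had ratios below 0 and the median was 0.04. EIF2AK4, the kinase that senses uncharged tRNA, gave 2221 in miR-127-3p cells and 1112 in control cells, a log2 ratio of 0.99, but its other probe set was at 0.27. PPP1R15A, a phosphatase subunit that reverses the response, had log2 ratios of 0.75 and 1.45 at its probe sets. PPP1R15B, its constitutive relative, was at -0.34. EIF2AK1, the haem-regulated kinase, was at -0.20 with its other probe set at 0.64.

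Several genes of the same pathways were too dim for the filter and are given as signals only. GLDC, the glycine decarboxylase, gave 53.7 in miR-127-3p cells and 14.6 in control cells, and SLC6A9, a glycine transporter, gave 38.2 in miR-127-3p cells and 7.33 in control cells. ALDH1L2, a mitochondrial folate dehydrogenase, gave 26.0 in miR-127-3p cells and 102 in control cells, where it was above the array median. ASPG, an asparaginase, gave 10.1 in miR-127-3p cells and 96.2 in control cells, also just above the median there. The methionine cycle genes MAT1A, BHMT and BHMT2, which are typical of liver, were below the array medians on both arrays.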
